A study of Drosophila melanogaster with 8 samples.

Results

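The genes of the dosage compensation complex were examined in ATAC-seq peak lists of primordial germ cells (PGCs) and of somatic cells from late Drosophila melanogaster embryos. There are 7 of them among 18164 annotated genes: msl-1, msl-2, msl-3, mle and mof, which encode proteins, and lncRNA:roX1 and lncRNA:roX2, which give noncoding RNAs. They were chosen by name, and a peak was assigned to a gene when at least 1 bp of it lay in the gene or up to 2000 bp from either end. By this rule the genes held 26 of the 19504 peaks of the PGC list and 20 of the 17411 peaks of the somatic list on the main chromosome arms. PGCs were sorted as GFP-positive cells and somatic cells as GFP-negative cells from overnight collections of a Vas::EGFP strain kept at 25°C, frozen before use, with 2 ATAC-seq replicates per cell type. Both groups carry the transgene and came from whole embryos, so that the somatic cells are a mixture of tissues. The labels do not give the sex of the embryos, and male and female cells were therefore not told apart. The series also holds 4 small RNA samples of ovaries, which were not analysed here. ATAC-seq uses a transposase that cuts and tags accessible DNA, so that fragments pile up over open chromatin.

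In Drosophila, males have a single X chromosome and raise the output of its genes with the MSL (male-specific lethal) complex. MSL1 is its scaffold, MSL2 the subunit that limits assembly to males, MSL3 a chromodomain protein, MOF the enzyme that acetylates histone H4, and MLE an RNA helicase that loads the roX RNAs. In females, Sex-lethal blocks translation of msl-2. The complex first binds GA-rich elements on the X, which lie also within both roX genes, and then spreads to active genes nearby; it is known mainly from somatic cells.

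Each deposited list was called by the authors on the average of both replicates. A height is therefore a single value per cell type, the averaged coverage in RPKM (reads scaled by bin length and by all mapped reads) at the summit, and has no spread between replicates; no difference between PGCs and somatic cells could be tested. How many reads lie behind a peak is not known. Both lists start at 50 RPKM, and peak borders fall on steps of 50 bp. A position without a listed peak may still carry coverage below 50 RPKM. The scale of heights may differ between the lists: over the peaks shared by both lists the median height was 76.9 RPKM in PGCs, against 65.3 RPKM in somatic cells, a factor of 1.18. Markers were looked up to check the sort. All 6 germ cell genes looked up (vas, pgc, ovo, otu, aub and zpg) had PGC peaks at their starts, the highest of each at 52.2 to 157.6 RPKM, and 1 of them, zpg, had a somatic peak at its start (54 RPKM). By the 2000-bp rule 4 of the 6 had somatic peaks, the highest of each at 95.7 RPKM (vas), 70 RPKM (ovo), 54 RPKM (zpg) and 51.8 RPKM (pgc). A seventh germ cell gene listed was not analysed here. All 6 genes of somatic tissues (wg, trh, Mef2, srp, elav and repo) had PGC peaks at their starts as well, the highest of each at 100.6 to 742.3 RPKM, and all but srp had somatic peaks there (61.7 to 237.3 RPKM). At the starts of wg, trh, elav and repo the PGC peak was the higher as deposited, as at wg with 598.8 RPKM, against 207.4 RPKM in somatic cells. Only at Mef2 was the somatic peak the higher, with 165.6 RPKM, against 152.6 RPKM in PGCs. Peaks at somatic genes were thus not limited to the somatic list and were mostly higher in the PGC list. Their part in the results was not tested.

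All 7 genes of the complex had a PGC peak by the 2000-bp rule, and 5 had a somatic peak; msl-1 and mof had none, although with 5000 bp on either side all 7 had one. Among all annotated genes, 69.2% had a PGC peak by this rule and 60.3% had a somatic one, and among protein-coding genes 74.05% and 65.2%. Looking only within 500 bp of annotated start sites, 6 of the 7 had a peak in PGCs (46.6% of all genes) and 4 in somatic cells (28.8% of all genes). The gene without a PGC peak at its start was mof. The genes msl-1 and lncRNA:roX2 had a start peak in PGCs but none in somatic cells, a state found in 21.8% of all genes. In each of the 5 genes with peaks in both lists the highest PGC peak exceeded the highest somatic peak, by 1.91 to 2.80 times with a median of 2.24. The highest ratio, that of roX2, rests on a peak nearest to the start of its neighbour nod, and was 1.43 with peaks nearest to a start of roX2 only. The value of 1.43 sets the PGC peak at the roX2 start (82.8 RPKM) against a somatic peak in CG11695 (58.1 RPKM). Those peaks do not overlap, and no somatic peak lay at the roX2 start. The ratio of mle, 2.04, rests on a peak nearest to the start of its neighbour Src42A. With peaks nearest to a member's own start only, the median over the members was 1.91. No median over all genes was computed in that way. Over the 9794 genes with peaks in both by the 2000-bp rule, the median was 1.68, and over the 1076 of them on the X it was 2.16. In most of these genes too the highest PGC peak was thus the higher, though their exact share was not counted. The member values are descriptions of 7 genes, since each list was called on the average of both replicates and holds no spread between them.

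**Figure D1:**
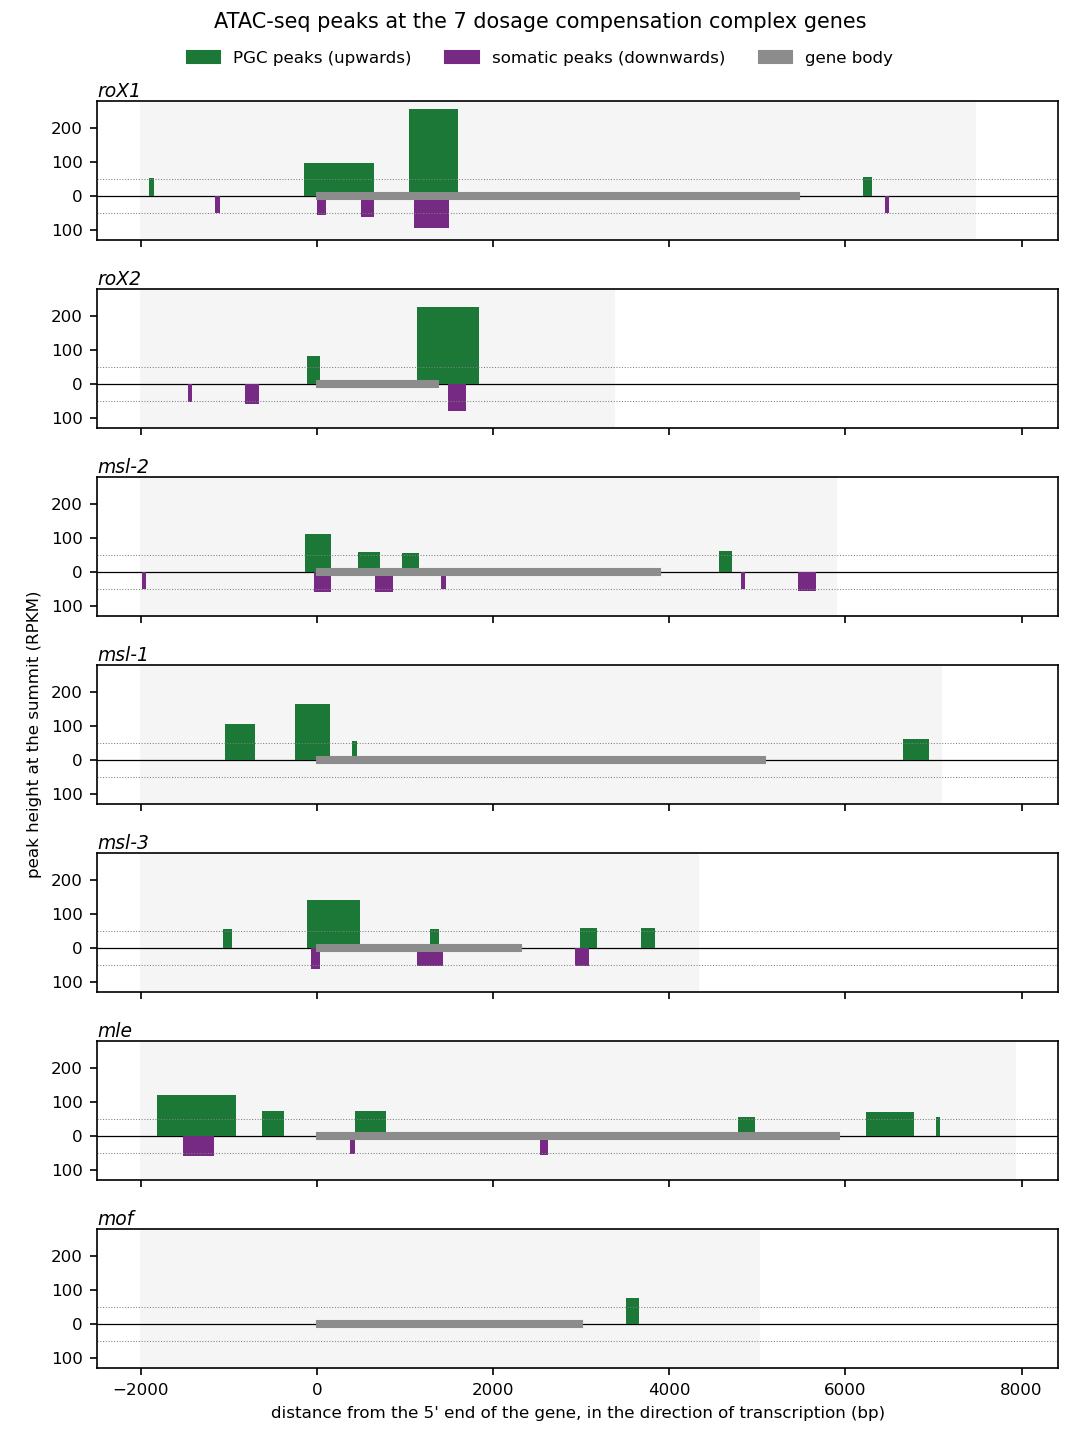
Peaks at the 7 genes, drawn against the distance in bp from the 5′ end of each gene in the direction of transcription, with PGC peaks upwards and somatic peaks downwards, height in RPKM on the vertical axis. Grey bars are gene bodies, shading is the window of 2000 bp on either side, and dotted lines mark 50 RPKM. The highest PGC peaks lie inside roX1 (256 RPKM) and across the end of roX2 (226.2 RPKM), msl-1 has PGC peaks only, and mof has a single PGC peak beyond its end.

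The highest peak of the group in both lists lay inside lncRNA:roX1 (FBgn0019661). This gene spans X:3857230-3862697 on the reverse strand (dm6), has 3 annotated start sites and overlaps the gene ec. The peak reached 256 RPKM in PGCs, from 3861101 to 3861650, and 93.8 RPKM in somatic cells, from 3861201 to 3861600. Both summits fell in the same step, at 3861326 in an exon of roX1, 735 bp downstream of the nearest start site. In PGCs it ranked 501 of all 19504 peaks and 94 of the 2553 on the X. In somatic cells it ranked 1094 of 17411 peaks and 167 of the 1615 on the X. It was thus above 97.4% of the PGC list and 93.7% of the somatic list. The bases around this summit are shown because GAGAG elements lie beside it. They are the 150 bp at chrX:3861251-3861400, read in the direction of roX1, with GAGAG on either strand in capitals.
roX1 internal peak: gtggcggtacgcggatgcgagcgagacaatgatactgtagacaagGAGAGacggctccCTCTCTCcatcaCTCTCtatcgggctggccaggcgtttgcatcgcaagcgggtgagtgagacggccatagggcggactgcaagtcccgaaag
The whole PGC peak held 5 GAGAG matches on both strands, overlapping ones counted apart, of which 4 are in the bases shown. Their middles were 2 to 77 bp from the summit. All 5 also lay under the somatic peak. GAGAG is the core bound by GAGA factor and part of the GA-rich elements to which the protein CLAMP and the MSL complex bind. Among the 3296 PGC peaks at least 500 bp wide, 27.8% held 5 or more matches, so the number as such is common in wide peaks.

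The start sites of roX1 were open in both lists too, at lower heights. A PGC peak of 97.9 RPKM covered all 3 start sites from 3862051 to 3862850. In the somatic list 2 peaks lay under it, of 63.1 RPKM from 3862051 to 3862200 and of 55.3 RPKM from 3862601 to 3862700. The other peaks assigned to roX1 were at most 100 bp wide, lay outside the gene in exons of ec and yin, and reached 56 and 53.1 RPKM in PGCs, against 50.9 and 50.3 RPKM in somatic cells. None of these 4 met a peak of the other list.

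The shorter gene lncRNA:roX2 (FBgn0019660) spans X:11579065-11580432 on the forward strand. Its highest peak was of a height like that of roX1, at 226.2 RPKM in PGCs from 11580201 to 11580900 and 80.8 RPKM in somatic cells from 11580551 to 11580750. The PGC peak ranked 707 of all PGC peaks and the somatic peak 1875 of all somatic peaks. Of the 700 bp of the PGC peak, 232 bp lay inside roX2. Its summit, at 11580676, was 244 bp beyond the 3′ end of roX2 and 96 bp upstream of the start site of nod, which encodes a kinesin-like protein of meiotic chromosome segregation. The somatic peak lay wholly between both genes. From position alone this peak cannot be given to roX2 rather than to nod. The GA-rich part of roX2 sits at the other end of the same PGC peak and is shown for comparison with roX1: the 100 bp at chrX:11580201-11580300, forward strand, with GAGAG in capitals.
roX2 downstream peak, end inside roX2: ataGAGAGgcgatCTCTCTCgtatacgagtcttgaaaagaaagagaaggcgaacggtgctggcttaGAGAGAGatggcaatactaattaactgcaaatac
This peak also held 5 GAGAG matches, all of them inside the gene, but 405 to 470 bp from the summit. None of the 5 lay under the somatic peak. The roX genes thus differed in layout: the GAGAG group of roX1 was under the summit in both lists, and that of roX2 was at the edge of the PGC peak and outside the somatic one.

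At its own start site roX2 had a PGC peak of 82.8 RPKM from 11578951 to 11579100, with the summit 39 bp upstream. No somatic peak reached it; the nearest, of 58.1 RPKM from 11578251 to 11578400, ended 665 bp before the start site, in a coding exon of CG11695. The whole start peak is shown at chrX:11578951-11579100, with the core of Motif 1 in capitals (GGTCACACT, a promoter element of many Drosophila genes).
roX2 start peak: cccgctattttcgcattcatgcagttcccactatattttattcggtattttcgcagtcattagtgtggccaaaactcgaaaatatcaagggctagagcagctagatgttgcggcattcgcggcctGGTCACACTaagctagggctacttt
The match lies downstream of the start site, within the transcribed part.

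The highest peaks of both roX genes were set against other genes by the distance of their log2 heights in the 2 lists, leaving out genes that share a peak with them. The genes most like roX1 were Fur1 on 3R (253.6 RPKM in PGCs, against 95.6 RPKM in somatic cells), at a log2 distance of 0.031, and CkIIbeta and Karl on the X (252.6 RPKM in PGCs, against 91.2 RPKM in somatic cells for both), at 0.045. For roX2 they were CG2889 and nocte on the X (227.9 RPKM in PGCs, against 80.6 RPKM in somatic cells for both), at 0.011, and Diedel on 3R (224 RPKM in PGCs, against 81 RPKM in somatic cells), at 0.015. The likeness rests on 2 values per gene.

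Of the protein-coding members, msl-2 (FBgn0005616) is the gene whose protein limits the complex to males. It spans 2L:3462218-3466112 on the reverse strand and carries the gene of the microRNA mir-4971 within it. The peak at its start reached 111.1 RPKM in PGCs from 3465951 to 3466250 and 57.9 RPKM in somatic cells from 3465951 to 3466150, with the same summit 14 bp upstream of the start site. The start site of ND-PDSW, on the other strand, lies 45 bp away. The PGC peak covered it and the somatic peak ended just short of it, so from position alone neither peak can be given to msl-2 rather than to ND-PDSW. Inside the coding exons PGCs had peaks of 58.5 and 56.1 RPKM, and somatic cells peaks of 58.3 and 51 RPKM, of which the first of each list overlapped. A GAGAG element 161 bp and a Motif 1 core 43 bp from the summit both occurred in the PGC start peak. The Motif 1 core is shown with 10 bases to each side, at chr2L:3466069-3466097 in the direction of msl-2.
msl-2 start peak: ggcacactgcGGTCACACTggcttcgctc
Beyond the gene, PGCs had a peak of 61.6 RPKM in CG3246, and somatic cells had 3 peaks of 50.2 to 57.4 RPKM in CG3246 and Pif1, none of them shared.

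The scaffold gene msl-1 (FBgn0005617) spans 2L:18683720-18688800 on the reverse strand. It had 4 PGC peaks and no somatic peak within 2000 bp; the nearest somatic peak lay 7201 bp from its start site. The highest PGC peak, 165.1 RPKM from 18688651 to 18689050, had its summit 76 bp upstream of the start site. The other 3 were a peak of 104.7 RPKM at the start of the neighbouring gene CG10336, one of 61.1 RPKM at the start of tos, and one of 56.1 RPKM and 50 bp width in a coding exon of msl-1. Of all PGC peaks of 100 to 200 RPKM, wherever they lay, 65.3% overlapped a somatic peak and 1016 of 2924 did not. Of the 1458 PGC peaks of at least 165.1 RPKM, that at the start of msl-1 included, 118 (8.09%) overlapped none. The 150 bp around the summit of the msl-1 start peak lie at chr2L:18688801-18688950, upstream of msl-1, and are given in its direction. They are shown because they lack the motifs searched at the other starts.
msl-1 start peak: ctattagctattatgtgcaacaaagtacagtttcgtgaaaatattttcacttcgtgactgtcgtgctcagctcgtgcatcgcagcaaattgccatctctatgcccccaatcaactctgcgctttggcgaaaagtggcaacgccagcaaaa
No base is in capitals, since neither GAGAG, GGTCACACT nor TATCGATA occurs there; this says only that these letters are absent from this window.

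The chromodomain gene msl-3 (FBgn0002775) spans 3L:7123213-7125533 on the reverse strand and overlaps form3. Its start peak reached 139.8 RPKM in PGCs from 7125051 to 7125650, and 62.3 RPKM in somatic cells from 7125501 to 7125600. The PGC peak was 600 bp wide and the somatic peak 100 bp, with the same summit 43 bp upstream of the start site. The start site of BBS1, on the other strand, is 372 bp away. In the coding part of msl-3 a PGC peak of 55.5 RPKM overlapped a somatic peak of 52.6 RPKM, and in form3 a PGC peak of 59 RPKM overlapped a somatic peak of 53.4 RPKM. These pairs near 50 RPKM were of almost the same height in both lists, unlike the pair at the start. The bases between the start site and the upstream end of the PGC peak are shown at chr3L:7125534-7125650, in the direction of msl-3, with the Motif 1 core and the DRE in capitals (TATCGATA, bound by the factor DREF and found at many housekeeping promoters).
msl-3 start peak: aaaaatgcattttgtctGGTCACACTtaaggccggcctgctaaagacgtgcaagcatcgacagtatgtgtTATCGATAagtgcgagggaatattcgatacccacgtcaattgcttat
The middle of the DRE was 1 bp and that of Motif 1 was 53 bp from the summit that both lists share.

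**Figure D2:**
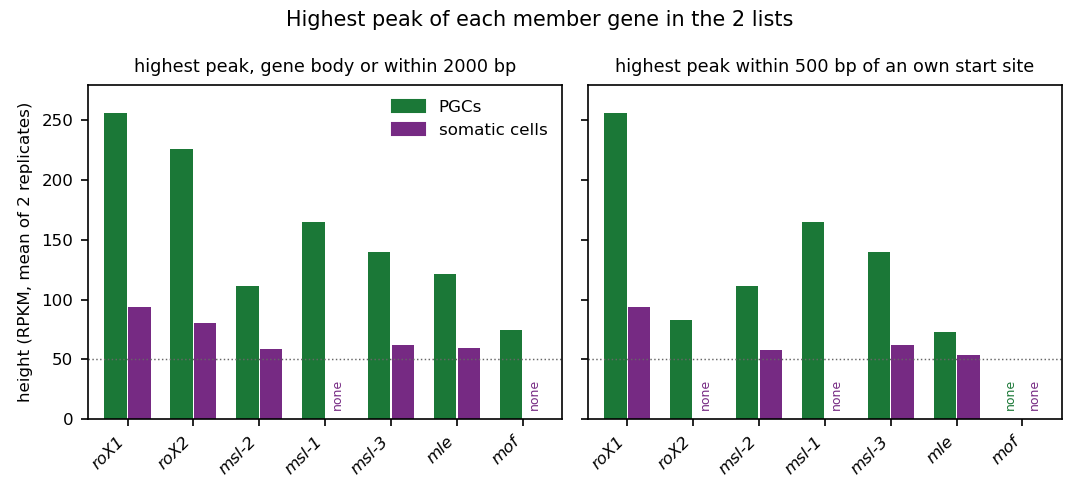
Highest peak of each gene in RPKM (each bar is the mean coverage of 2 replicates at 1 summit), for the gene body with 2000 bp on either side (left panel) and within 500 bp of an own start site (right panel), PGCs in green and somatic cells in purple; the dotted line marks the lowest listed height of 50 RPKM. Where both lists have a peak the PGC bar is the higher, and "none" marks the lists without a peak. In the right panel the roX1 bars are those of its internal peak, of which only the edge lies within 500 bp of a start site.

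The acetyltransferase gene mof (FBgn0014340) spans X:5873840-5876853 on the reverse strand and had the fewest peaks of the group. Its start site was 2648 bp from the nearest PGC peak and 7103 bp from the nearest somatic peak. The PGC peak assigned to it, 74.8 RPKM from 5873201 to 5873350, lay beyond its 3′ end, with the summit 31 bp from the start site of GAA1. No peak of either list touched the gene body. On the X, 64.7% of genes had a peak in PGCs and 41.1% in somatic cells by the 2000-bp rule. A PGC peak without a somatic one, as at mof, was found in 26.4% of X genes, and 32.5% had neither.

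The helicase gene mle (FBgn0002774) spans 2R:5974857-5980778 on the reverse strand with 2 annotated start sites. Comparing the highest start peak of each gene, that of mle was the lowest of the 6 genes with one in PGCs and of the 4 with one in somatic cells. Near its start sites the PGC list had peaks of 72.2 RPKM, from 5980001 to 5980350, and of 72.9 RPKM, from 5981151 to 5981400, and the somatic list a peak of 53.3 RPKM from 5980351 to 5980400. The somatic peak began on the base after the first PGC peak ended, so that by the rule of shared bases they counted as separate. The highest peak in its window, 121 RPKM in PGCs from 5981701 to 5982600 and 59.2 RPKM in somatic cells from 5981951 to 5982300, had its summits in the 5′ UTR of Src42A, a tyrosine kinase gene on the other strand. At the 3′ end, PGC peaks of 69.2 and 55.7 RPKM lay at BubR1. Inside the coding exons, 1 PGC peak of 54.8 RPKM and 1 somatic peak of 55.7 RPKM did not meet.

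The peaks of the 7 genes fell into classes by place. In PGCs, 10 peaks lay within 500 bp of an own start site and reached 56.1 to 256 RPKM, 3 lay elsewhere inside a gene at 54.8 to 56.1 RPKM, and 13 outside at 53.1 to 226.2 RPKM. In somatic cells, 6 lay near an own start site at 53.3 to 93.8 RPKM, 4 elsewhere inside a gene at 51 to 58.3 RPKM, and 10 outside at 50.2 to 80.8 RPKM. The highest peak near a start in both lists, 256 and 93.8 RPKM, was the internal peak of roX1. Only its edge, and not its summit, lay within 500 bp of a start site. Many assigned peaks belonged by position to neighbours: for 10 of the 26 PGC peaks and 7 of the 20 somatic peaks, the start site nearest to the summit was that of another gene. Peaks in the windows covered 2.14% (mof) to 23.2% (mle) of the bases in PGCs, and 0% (msl-1 and mof) to 9.50% (msl-2) in somatic cells. The median width was 225 bp in PGCs and 125 bp in somatic cells, beside 150 bp for all peaks of either list.

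Overlap with a somatic peak was seen for 9 of the 26 PGC peaks (34.6%, beside 39.3% of all PGC peaks), and 10 of the 20 somatic peaks met one of PGCs (50%, beside 45.9% of all somatic peaks). The PGC peaks without a somatic one reached up to 165.1 RPKM, at msl-1, while the somatic peaks without a PGC one reached at most 58.1 RPKM. In all, 16 of the 20 somatic peaks were below 60 RPKM (80%, beside 61.5% of all somatic peaks), against 11 of the 26 PGC peaks (42.3%, beside 45.3% of all PGC peaks). The somatic peaks that were not shared thus all lay just above the lowest listed height.

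In all 9 shared pairs the PGC peak was the higher as deposited, beside 64.5% of the 7667 shared pairs of the genome; with each list divided by its median over shared peaks, 6 of the 9 were higher in PGCs, beside 47.7%, and the 3 pairs inside msl-2, inside msl-3 and in form3 were lower. The ratio of deposited heights ran from 1.003 at a coding exon of msl-2 to 2.80 at roX2, with a median of 1.92, and the median over all shared pairs was 1.15 (quartiles 0.918 and 1.92). The ratio grew with the PGC height in the genome at large: its median was 1.10 for PGC peaks of 60 to 100 RPKM, 2.04 for those of 100 to 200 RPKM and 2.76 for those of 200 RPKM and above. Read within these classes, the pair inside roX1 had a ratio of 2.73 and the pair at the end of roX2 a ratio of 2.80, both close to the median of their class (quartiles 2.32 and 3.39) and to the median of 2.81 for X-linked pairs of that height. The start peaks of msl-2 (1.92) and msl-3 (2.24) and the peak over the start of Src42A next to mle (2.04) lay within the quartiles of their class, 1.63 and 2.40. Among the lower pairs, the start peak of roX1 (1.55) lay above the upper quartile of its class, 1.29. The 3 pairs of PGC height below 60 RPKM (1.003 to 1.10) lay above the upper quartile of theirs, 0.992. The median of that lowest class was 0.904. No member pair lay below the lower quartile. A class chosen by PGC height favours pairs that are high in PGCs, so the ratio is tied to the height by the way the classes were made.

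**Figure D3:**
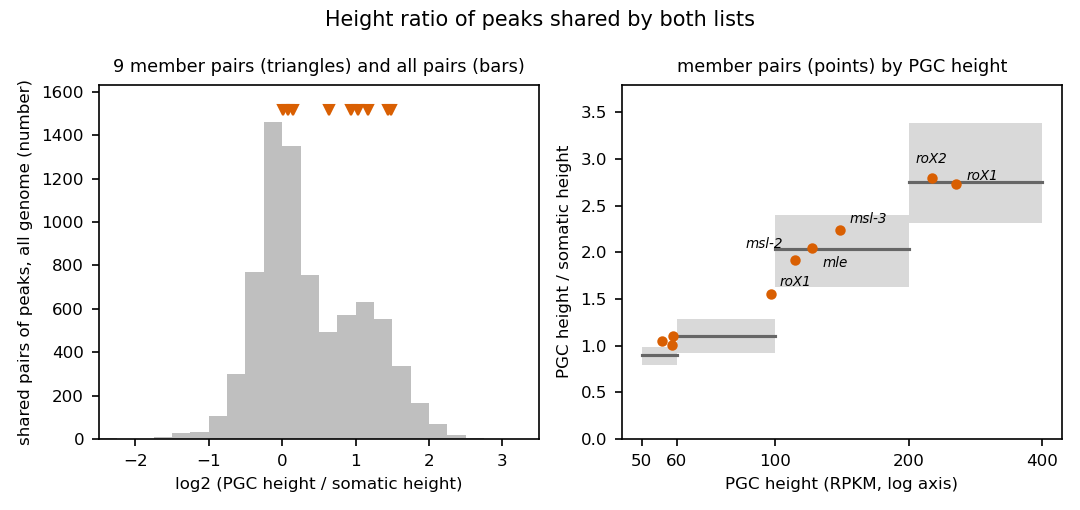
Left: number of the 7667 shared pairs by the log2 ratio of PGC height to somatic height, with the 9 member pairs as triangles, all above 0 as deposited (6 of 9 once each list is divided by its median over shared peaks). Right: ratio of heights against PGC height in RPKM (log axis), with the median (line) and quartiles (grey) of all shared pairs in 4 classes of PGC height, the last of which is open and drawn up to 400 RPKM; the points inside roX1 and at roX2 lie near the median of 2.76.

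In 3 of the 9 pairs, inside roX1 and at the starts of msl-2 and msl-3, both summits fell in the same 50-bp step, as they did in 36.9% of all shared pairs. In the others the summits were 50 to 350 bp apart, with the largest gap at the start sites of roX1.

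Motifs were compared within 100 bp of the summit on either strand, a window of 201 bp. GAGAG occurred at 5 of the 26 PGC peaks of the 7 genes (19.2%) and at 35.3% of all PGC peaks, and at 5 of the 20 somatic peaks (25%) and 32.5% of all somatic peaks. Among the 8036 PGC peaks near any start, 33.8% held GAGAG in this window. Of the 10 PGC peaks counted near an own start site of the 7 genes, 1 held it (10%), the internal peak of roX1. That peak counted because its edge lay within 500 bp of a start site, while its summit was 735 bp away. The peak over the start sites of roX1 held no match. The Motif 1 core, which was added to the search after the sequences had been read, occurred at 4 of the 26 PGC peaks (15.4%) and at 2.39% of all PGC peaks. Since this motif belongs to start sites, peaks near a start are the closer background: it occurred at 3 of the 10 PGC peaks near an own start site of the 7 genes, against 5.53% of the 8036 PGC peaks near any start. These 3 are the start peaks of msl-2, msl-3 and roX2, and the fourth is the peak at the start of tos, next to msl-1. The DRE occurred at 3 of the 26 PGC peaks (11.5%), beside 3.20% of all PGC peaks, namely those at msl-3, at BubR1 next to mle and at GAA1 next to mof. Near an own start site it occurred at 1 of the 10 (10%), beside 6.98% of the PGC peaks near any start. Motif 1 and the DRE were chosen with the sequences in view, and no share was tested.

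**Figure D4:**
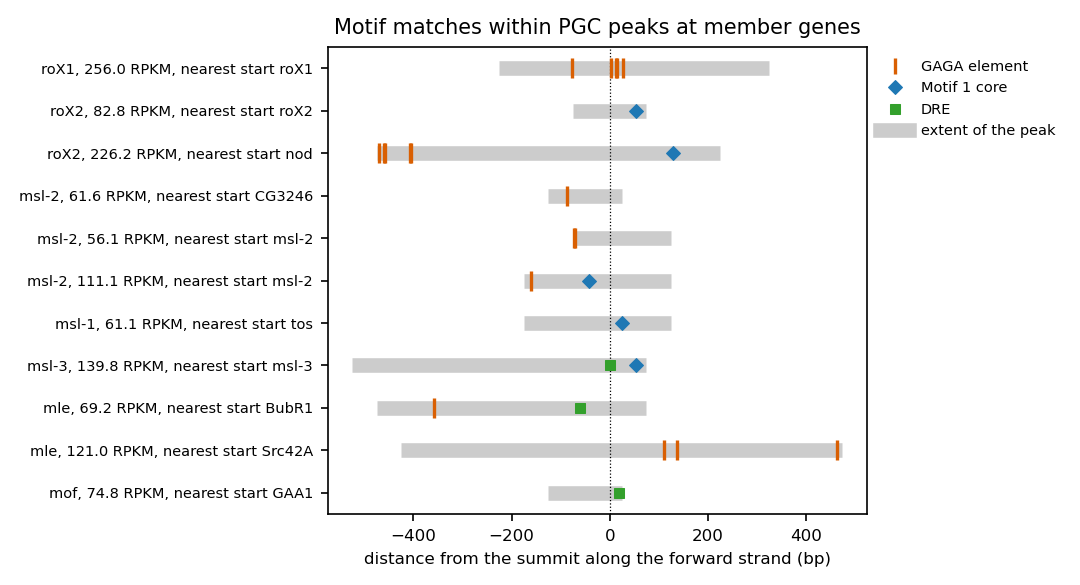
Matches to GAGAG, to the Motif 1 core and to the DRE in the 11 PGC peaks of the 7 genes that hold any of them, by distance in bp from the summit along the forward strand; grey bars give the extent of each peak. In the peak inside roX1 the GAGAG matches lie 2 to 77 bp from the summit, and in the peak at the end of roX2 they lie 405 to 470 bp away.

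Other genes of dosage compensation were looked up in the same way, in a pair of lists. All 8 cofactors and regulators had a start peak in PGCs and in somatic cells, beside 6 and 4 of the 7 genes of the complex. Among all annotated genes the shares were 46.6% in PGCs and 28.8% in somatic cells. The highest PGC peak of each exceeded its highest somatic peak, by 2.05 to 3.37 times. The median over all genes with peaks in both lists was 1.68 as deposited, so most of them too had the higher peak in PGCs. With each list divided by its median over shared peaks, the ratios of the cofactors and regulators ran from 1.74 to 2.86. No median over all genes was computed on that scale. Clamp, whose zinc finger protein binds the GA-rich elements, had a start peak of 159.5 RPKM in PGCs, against 61 RPKM in somatic cells. Sxl, the female-specific repressor of msl-2 translation, lies on the X and had 242.5 RPKM in PGCs, against 88 RPKM in somatic cells. These values are between those of the roX1 and roX2 peaks in PGCs and in somatic cells. Unr, whose RNA-binding protein acts with Sex-lethal on msl-2 mRNA, had 148.9 RPKM in PGCs, against 61.1 RPKM in somatic cells. Another regulator of msl-2 RNA, how, had 196.6 RPKM in PGCs, against 57.6 RPKM in somatic cells. The highest start peak of this list in PGCs was that of the RNA-binding protein gene Hrb27C, with 376.6 RPKM, against 73.7 RPKM in somatic cells. The highest somatic peak of Hrb27C, 152.8 RPKM, lay more than 500 bp from its start sites, and the ratio of its highest peaks was 2.46. Trl, the gene of GAGA factor, had 299.6 RPKM in PGCs, against 118.1 RPKM in somatic cells. Its highest somatic peak, 145.8 RPKM, also lay away from the start sites. JIL-1, a histone kinase enriched on the male X, had 163 RPKM in PGCs, against 67.5 RPKM in somatic cells. The topoisomerase gene Top2 had 165.3 RPKM in PGCs, against 57.4 RPKM in somatic cells.

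The NSL complex shares MOF with the MSL complex and acts at promoters in both sexes. All 6 of its genes listed had a start peak in PGCs (46.6% of all genes) and 4 had one in somatic cells (28.8% of all genes). Rcd1 (97.3 RPKM) and Rcd5 (135.7 RPKM) had it in PGCs only, as did 21.8% of all genes. The highest was that of nsl1, which encodes its scaffold, with 354.1 RPKM in PGCs, against 107.3 RPKM in somatic cells. At wds, which encodes a WD-repeat protein, the start peak had 126.9 RPKM in PGCs, against 55 RPKM in somatic cells. At dgt1 it had 102.5 RPKM in PGCs, against 50 RPKM in somatic cells. At MBD-R2 it had 52 RPKM in PGCs, against 51.3 RPKM in somatic cells, a ratio of 1.01 as deposited that became 0.861 once each list was divided by its median over shared peaks. Among the genes of the complex and of both lists, mof was the only one without a PGC peak at its start, and msl-1 and mof the only ones without a somatic peak by the 2000-bp rule, which no longer held with 5000 bp on either side.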

How the data were processed

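The authors trimmed reads with cutadapt (4.2), aligned them with bowtie2 (2.5.1) to release 6 (dm6), removed duplicates with SAMtools (1.17), computed RPKM coverage outside blacklisted regions with deepTools (3.5.4), averaged the 2 replicates and called peaks with MACS2 bdgpeakcall at a hand-set cutoff (versions from the submitters' processing notes). The deposited score is 10 times the height at the summit and was divided by 10. RPKM scales by mapped reads, so a library with more background has lower peaks and fewer above 50 RPKM; no shift for transposase cuts is described. The labels give a sequencing yield, but no read counts, so the depth behind a peak is unknown.

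Peaks on 2L, 2R, 3L, 3R, 4 and X were joined to Ensembl genes of the same assembly, without transposable elements, and sequences read from the RefSeq release 6 genome (Python 3.11.15, numpy 2.4.6, matplotlib 3.10.9). Interval and motif steps were tested on simulated data. The genes named are the members, 2 lists of related genes, neighbours whose start is nearest to a peak or that overlap a member, and the 3 genes most like each roX gene. Alternatives changed distances, height and width minima, overlap, scale and motif windows. The members, lists and motifs were chosen with earlier results of these data known. No test was made, since each list is 1 average.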

Additional observations from a re-analysis of the deposited data

How the results depend on the processing

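No paired analysis was possible because both replicates of a cell type were averaged before peaks were called, and so no replicate could be left out. Of 91 recomputed values, 64 stayed within 1.5 times the reported one and 27 moved further. Only the ratios of heights have a direction, and none of these fell below 1, while counts have none. Single shared pairs, of which 3 of 9 fell below 1 after scaling, were not among these values. For 1 more no value could be had, since no somatic peak touched the body of roX2. Counting only peaks of at least 60 RPKM left 3 genes with a somatic peak and 2 with one near a start, 15 PGC peaks, 4 somatic peaks, 4 shared PGC peaks and 3 with GAGAG; at 80 RPKM these were 2, 1, 9, 2, 2 and 1. With the gene body alone, 13 PGC peaks, 10 somatic peaks and 2 with GAGAG remained, and with 500 bp on either side 16, 11 and 3. With 5000 bp on either side all 7 genes had a somatic peak, msl-1 and mof included, and there were 32 PGC peaks and 26 somatic peaks. Peaks nearest to a member's own start numbered 16 in PGCs (3 with GAGAG) and 13 in somatic cells. The ratio at roX2 was then 1.43, from peaks of the 2 lists that did not overlap. Peaks at least 100 bp wide left 13 somatic peaks. Dividing each list by its median over shared peaks gave ratios of 2.38 at roX2 and 2.32 at roX1 and a median over the members of 1.91. No median over all genes was computed on that scale. A reciprocal overlap of 50% left 3 shared PGC peaks. GAGAG lay within 50 bp of the summit at 2 PGC peaks and within 250 bp at 9, and the longer GAGAGAGA at 0; GGTCACACT, chosen after seeing the data, lay within 100 bp at 4. Depth behind single peaks, and so the precision of peaks near 50 RPKM, is unknown.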
